A study of Mus musculus with 2 samples.

Results

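The Hox genes of the 4 mouse clusters encode homeodomain transcription factors, and 38 of the 39 genes were followed here through the chromatin accessibility of their loci. The remaining gene was not analysed here. Members were taken by name from the annotation, not by any measured value, and comprised 10 Hoxa, 10 Hoxb, 9 Hoxc and 9 Hoxd genes among 21778 protein-coding genes. Every accessible interval between the outermost member gene ends of a cluster was also included, which gave 114 of the 119502 intervals in the table.

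ATAC-seq reads out accessibility with the transposase Tn5, which inserts sequencing adapters into open chromatin. The cells carried a mKate2 fluorescent reporter at Olig2, a gene of motor neuron progenitors (pMN), and were labelled as neural progenitors (NPs). Mouse embryonic stem cells of this line received bFGF with the Wnt secretion inhibitor LGK, then bFGF, the Wnt agonist CHIR99021, SB-431542 and DMH1, and from day 3 to day 5 100 nM retinoic acid (RA) and 100 nM of the Shh pathway agonist SAG. Live mKate2-positive cells were sorted on day 5, and 50000 cells entered each transposition. The series held 1 group of 2 libraries, so no conditions were compared, and nothing in the labels says whether the libraries came from separate cultures. A reporter-positive sort may also hold cells past the progenitor stage, and the ES cells were kept on feeder fibroblasts.

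Hox genes lie in each cluster in the order in which they act along the body axis, and genes at the same place in different clusters form a paralog group. Low-numbered groups pattern the hindbrain, intermediate groups the cervical, brachial and thoracic spinal cord, and high-numbered groups the lumbar, sacral and tail levels. In the developing neural tube the clusters open from the anterior to the posterior end, RA acts on the anterior genes through RA response elements, and Cdx factors, Wnt and FGF act on the more posterior ones.

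RA response elements of the DR5 type, 2 direct hexamer repeats spaced by 5 bases, were searched on both strands of every cluster interval, since RA was the agent that the cells had received. They were found in 3 of the 114 intervals, 1 each in the Hoxa, Hoxb and Hoxd clusters. All 3 lay inside the annotated gene of the group 3 paralog and read in the direction of transcription of their cluster. The 57 bases around each element are shown 5′ to 3′ from the GRCm38 (mm10) reference, with the element in capitals. They come from chr6:52175513-52175569 on the minus strand, chr11:96341216-96341272 on the plus strand and chr2:74741520-74741576 on the plus strand.
Hoxa element: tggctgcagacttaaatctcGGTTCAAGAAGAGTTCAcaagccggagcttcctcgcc
Hoxb element: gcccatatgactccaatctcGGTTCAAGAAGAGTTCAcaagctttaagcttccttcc
Hoxd element: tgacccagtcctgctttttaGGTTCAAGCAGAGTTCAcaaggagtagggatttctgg
The Hoxa and Hoxb elements were identical over all 17 bases, and 38 of the 57 bases shown were the same. The Hoxd element differed from both by A9C, counted from the 5′ end of the element, and shared 32 of 57 bases with each.

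The interval around the Hoxa element, chr6:52175149-52176255, had a density of 1958 normalised counts per kb in replicate 1 and 1869 in replicate 2. Density is used throughout for the count of an interval, divided by the library size factor and by the interval length in kb. This was the densest of all 114 cluster intervals, at 1914 ± 63.1 (SD, n = 2), and it also holds the start of Hoxaas3, an antisense RNA gene of the cluster. The interval of the Hoxb element, chr11:96339231-96342204, had 545 and 539, and that of the Hoxd element, chr2:74738527-74742809, had 571 and 557. The replicates of each interval differed little, and per kb the Hoxa interval stood above the other 2 (541.9 ± 3.88 and 564.0 ± 9.41, SD, n = 2) with no overlap. Their lengths were unlike, at 1107 bp (Hoxa), 2974 bp (Hoxb) and 4283 bp (Hoxd). In counts the Hoxd interval was the highest, with 2443 and 2388, beside 2167 and 2070 in Hoxa and 1619 and 1604 in Hoxb. The Hoxd interval also overlaps a start of Hoxd3, while the Hoxa and Hoxb intervals overlap no protein-coding start. A DR5 match was present in 2.63% of cluster intervals and 0.679% of all intervals. As cluster intervals were longer, the same search was made in 500 bases centred on each interval, where it was found in 1 of 114 cluster intervals (0.877%) and in 0.536% of all intervals. A sequence match does not show that a receptor is bound.

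Promoter sequences also differed widely between members. RefSeq promoter sequences (GRCm38) were matched for 22 of the 38 genes, with 24 promoters in all. The 250 bases upstream of 4 starts are shown 5′ to 3′, with each CG dinucleotide in capitals, to set sequence beside accessibility. Hoxa2 and Hoxb4 were among the most accessible members, Hoxd12 was the least accessible with an interval at its start, and Hoxa13 had the most CG dinucleotides. They lie at chr6:52164832-52165081 (minus strand), chr11:96318017-96318266 (plus), chr2:74674763-74675012 (plus) and chr6:52260881-52261130 (minus).
Hoxa2: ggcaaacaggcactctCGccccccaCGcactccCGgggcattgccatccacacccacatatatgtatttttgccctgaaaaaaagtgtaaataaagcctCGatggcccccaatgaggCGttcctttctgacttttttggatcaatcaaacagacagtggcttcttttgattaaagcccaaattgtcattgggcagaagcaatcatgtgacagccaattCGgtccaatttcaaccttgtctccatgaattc
Hoxb4: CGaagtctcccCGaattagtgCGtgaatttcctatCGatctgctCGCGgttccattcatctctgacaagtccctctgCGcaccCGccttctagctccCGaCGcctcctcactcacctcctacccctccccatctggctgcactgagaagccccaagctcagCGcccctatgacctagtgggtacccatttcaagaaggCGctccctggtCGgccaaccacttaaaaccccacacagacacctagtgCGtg
Hoxd12: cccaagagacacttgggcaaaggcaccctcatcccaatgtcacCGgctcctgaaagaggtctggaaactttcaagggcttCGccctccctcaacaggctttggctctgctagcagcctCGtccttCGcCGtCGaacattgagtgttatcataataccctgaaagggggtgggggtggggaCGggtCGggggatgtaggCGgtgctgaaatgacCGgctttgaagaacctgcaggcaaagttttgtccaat
Hoxa13: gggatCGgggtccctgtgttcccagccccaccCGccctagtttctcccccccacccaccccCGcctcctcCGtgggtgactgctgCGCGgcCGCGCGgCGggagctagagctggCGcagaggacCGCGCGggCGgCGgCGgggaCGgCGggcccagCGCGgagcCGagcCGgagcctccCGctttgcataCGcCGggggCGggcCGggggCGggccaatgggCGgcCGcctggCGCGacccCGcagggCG
Hoxa2 had 6 CG dinucleotides and a TSS density of 842.8 ± 39.6, while Hoxa13 had 35 and a density of 286.3 ± 25.6 (SD, n = 2). Hoxb4 had 14 with 790.1 ± 52.8, and Hoxd12 had 10 with 79.4 ± 7.02. Over the 42 cluster intervals at a transcription start, Spearman's rho between density and the observed over expected CpG content was 0.07, and between density and GC content 0.01. These intervals share libraries and neighbourhoods, so the coefficients are descriptions.

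The first question was how open the clusters were beside the rest of the genome. The 4 clusters spanned 485.0 kb, and intervals covered 29.8% of it, beside 2.98% of the genome. The Hoxa cluster (chr6:52162417-52260880) had 30 intervals over 37.98% of its span, and the Hoxd cluster (chr2:74668310-74765142) had 22 over 34.5%. The Hoxb cluster (chr11:96194316-96368256) had 38 intervals over 26.6%, and the Hoxc cluster (chr15:102921103-103036852) had 24 over 23.6%. Intervals were spaced by a median gap of 2.26 kb inside the clusters, compared with 8.83 kb over all intervals.

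Counts per kb of span were highest in the Hoxa cluster, with 181.5 in replicate 1 and 164.8 in replicate 2. The Hoxd cluster had 166.9 and 163.5, overlapping the range of the Hoxa values. The Hoxb cluster had 129.1 and 120.7 and the Hoxc cluster 89.8 and 85.4. Per kb of span these clusters thus lay below the others and did not overlap each other. Over all 4 clusters the value was 133.8 ± 5.74, beside 11.7 ± 0.0596 over the genome (SD, n = 2). A sum of this kind follows how much of the span was called as intervals. Per kb of covered length the gap was small, with 449.2 ± 19.3 in the clusters and 391.6 ± 2.00 over all intervals. By cluster it was 479.2 ± 6.95 in Hoxd, 468.7 ± 22.3 in Hoxb, 455.8 ± 31.0 in Hoxa and 370.6 ± 13.2 in Hoxc (SD, n = 2). The replicate ranges of Hoxa, Hoxb and Hoxd overlapped on this measure, so their order by span was not kept, and Hoxc was the lowest.

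Another pair of homeobox clusters, the Irx genes, served as a comparison. Irx genes encode homeodomain factors that pattern the neural tube along its dorsoventral axis. Intervals covered 3.09% of the cluster of Irx1, Irx2 and Irx4 and 5.94% of that of Irx3, Irx5 and Irx6, with 7.59 ± 0.0619 and 31.5 ± 0.234 counts per kb of span. Both Irx spans are far longer, at 1311.7 and 882.4 kb, with 3 genes each.

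**Figure D1:**
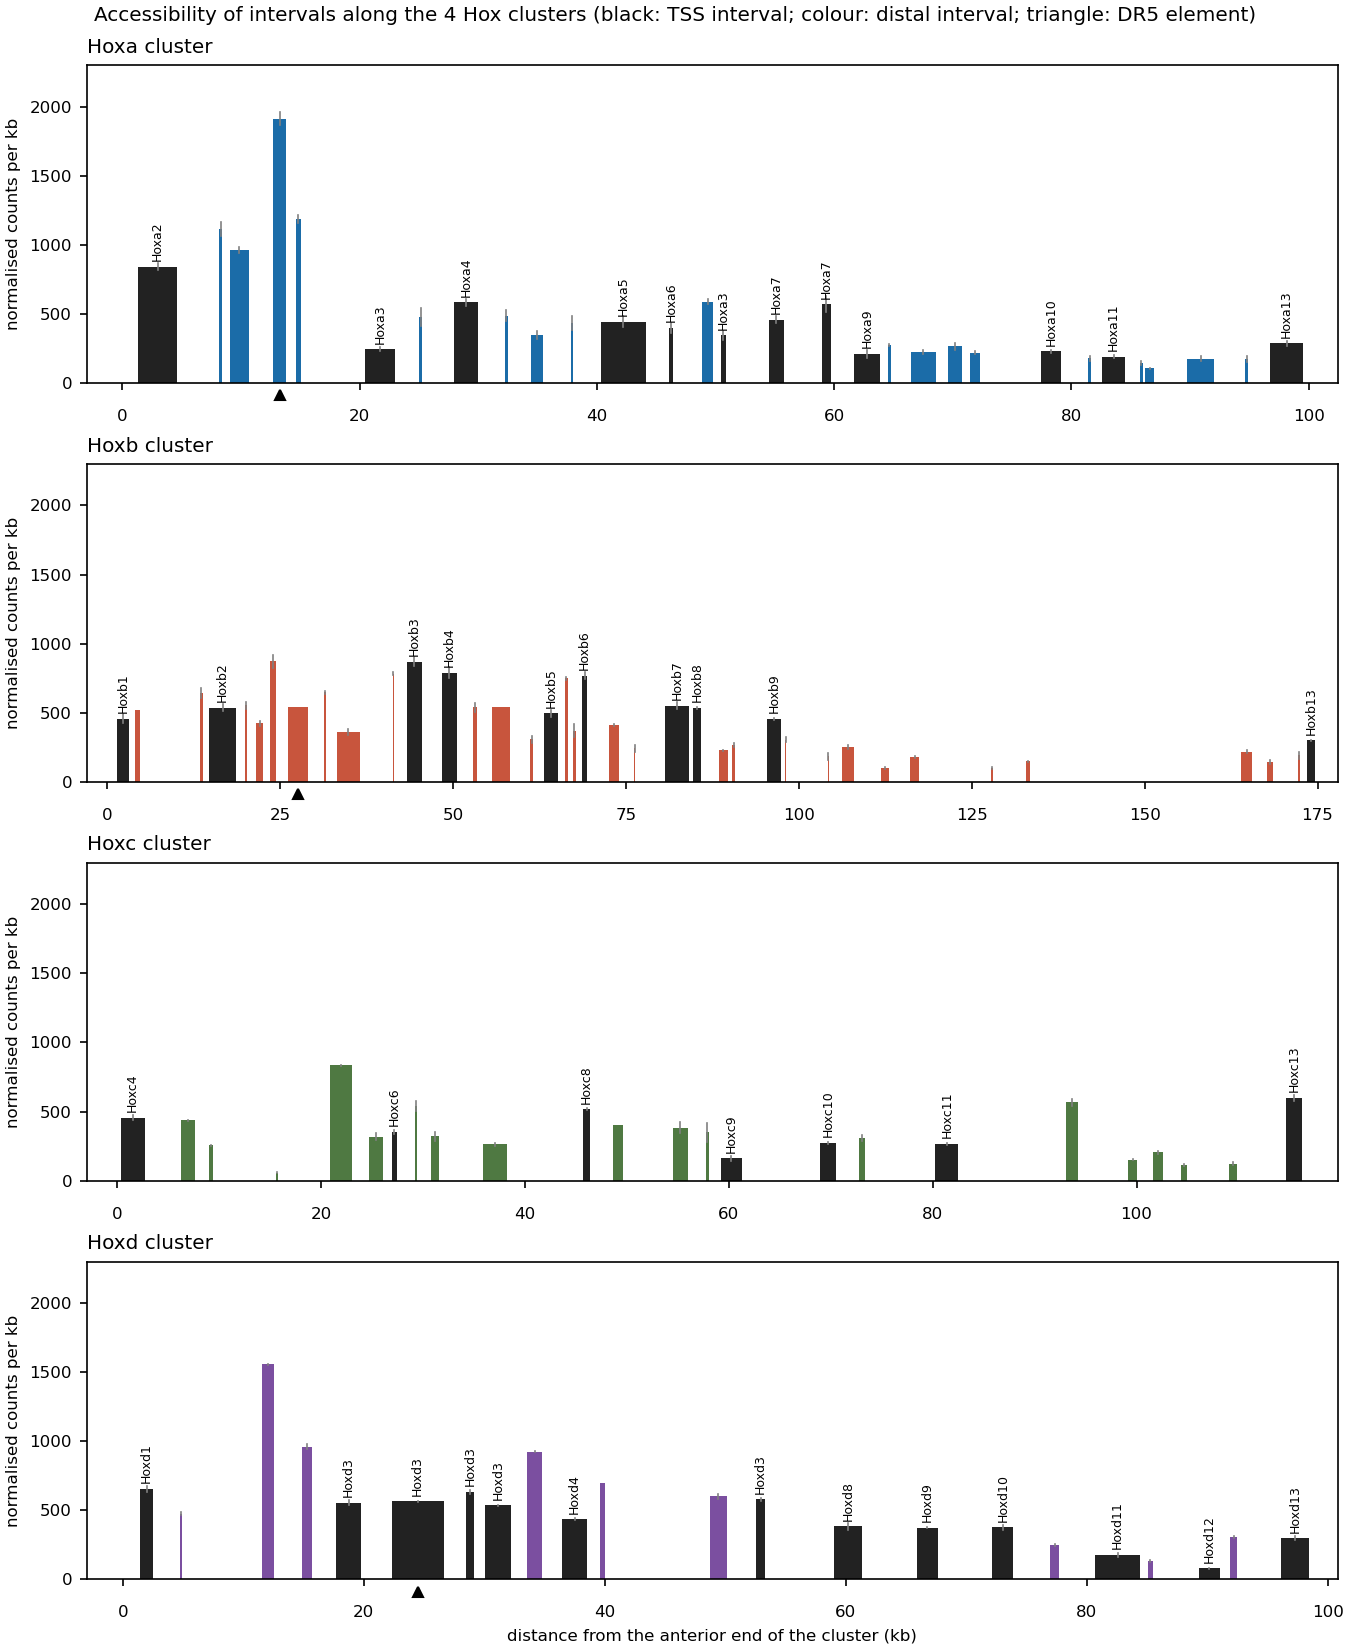
Density of each of the 114 intervals (bars, mean of 2 replicates, normalised counts per kb) against the distance in kb from the anterior end of its cluster. Bar width is interval length, grey lines join the 2 replicates, black bars overlap the start of the named gene, coloured bars are distal, and triangles mark the 3 intervals with a DR5 element. The tallest bars stand near the anterior end of the Hoxa and Hoxd clusters (1914 and 1556).

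Accessibility at transcription start sites (TSS) was then compared between members. A TSS interval, an interval that overlaps the start of a protein-coding transcript of the gene, was found for 36 of the 38 Hox genes, where 67.0% of protein-coding genes had one. The exceptions were Hoxc5 and Hoxc12, whose starts lay 33 bp and 1 bp outside an interval. At Hoxc5 that interval, chr15:103013848-103015983, was the densest of the Hoxc cluster, with 839.3 and 830.2 counts per kb, and at Hoxc12 the neighbouring interval, chr15:102936758-102937680, had 152.8 and 150.5. A density of 0 at these genes therefore says only that no interval reached the annotated base.

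Hox promoters were nevertheless not among the most open ones. All 42 Hox TSS intervals had a mean normalised count over 100, beside a background of 93.1% of TSS intervals. Their median density was 456.2 ± 24.4, while that of all TSS intervals was 807.7 ± 17.6 (SD, n = 2). Only 2 of the 42 lay above the median of all TSS intervals. Hox TSS intervals were also broad, with a median of 2060.5 bp against 1217 bp for all TSS intervals. Among intervals between the lower and upper quartile of the Hox lengths, 1189 to 2262 bp, the median density was 438.6 ± 12.6 for the 20 Hox intervals and 853.4 ± 24.0 for all 6604. By gene, Hoxb3 alone had a mean above the median of genes with a TSS interval (859.4 ± 18.8). It lay above that median in replicate 1 (902.9 against 872.7) and below it in replicate 2 (837.4 against 846.1). In bulk samples an interval open in a part of the cells cannot be told apart from one that is partly open in each of them.

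**Figure D2:**
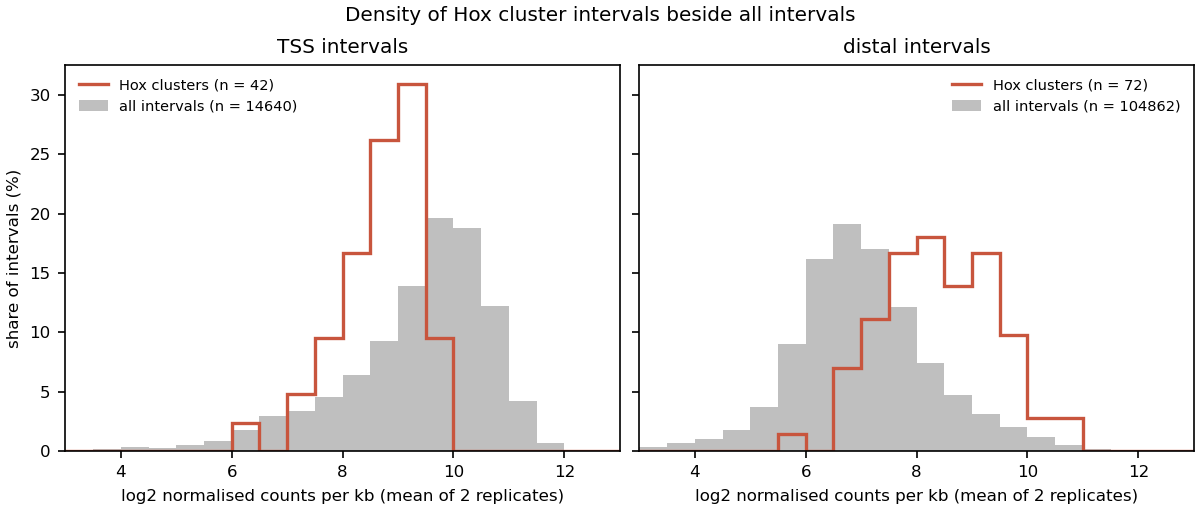
Share of intervals (%) by log2 density (normalised counts per kb, mean of 2 replicates) at TSS intervals (left) and distal intervals (right), for the Hox clusters (red line) and for all intervals (grey bars). Hox TSS intervals lie lower than all TSS intervals (median density 456.2 against 807.7) and Hox distal intervals higher than all distal intervals (330.9 against 124.1).

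Paralog groups 1 to 4, the hindbrain and upper cervical genes, had the highest TSS densities. All 11 genes had a TSS interval, and the median density was 559.9 in replicate 1 and 560.8 in replicate 2. The median fell on Hoxd3 in replicate 1 and on Hoxa4 in replicate 2, so its closeness does not measure how far single genes differed. Hoxb3, a hindbrain gene that also has a spinal cord domain, led with 902.9 and 837.4. Hoxa2, which patterns the second branchial arch and rhombomeres, followed with 870.9 and 814.8, so that the ranges of these genes overlapped. Hoxb4 had 827.4 and 752.8. Hoxd1, at the anterior end of its cluster, had 636.0 and 674.8, and Hoxa4 had 604.7 and 560.8. Hoxd3 had 5 TSS intervals along its long gene, and over all of them 559.9 and 563.2.

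The other anterior genes were lower. Hoxb2 had 559.6 and 508.9, and Hoxb1, a rhombomere 4 gene, had 490.8 and 424.9. Hoxc4 had 439.6 and 472.8, and Hoxd4 had 430.1 and 443.3, so the ranges of these 2 group 4 genes overlapped. Hoxa3 was the lowest member of groups 1 to 4, at 278.2 and 242.4. The interval at its nearer start had 260.6 and 229.7, and that at its far start, between Hoxa6 and Hoxa7, had 376.0 and 313.0. Hoxa2 was thus 3.25 ± 0.163 times above its neighbour Hoxa3 (SD, n = 2), with no overlap between replicates.

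Paralog groups 5 to 9 cover the genes that assign motor neurons to the cervical, brachial and thoracic levels. A TSS interval was found for 14 of 15, with a median density of 465.0 and 404.4. Hoxb6 was the highest, at 791.3 and 745.4. The other Hoxb genes of these groups lay close together: Hoxb7 had 577.5 and 524.1, Hoxb8 had 545 and 529.5, and Hoxb5 had 518.8 and 472.3.

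Hoxa5 and Hoxc5 are cervical genes, and Hoxc6 and Hoxc8 set motor neuron identity at the limb-innervating brachial level. Hoxa5 had 482.1 and 404.4, and Hoxa6 had 437.3 and 361.5. Hoxc6 had 337.3 and 369.4, and Hoxc8 had 510.2 and 524.1. Hoxa7 had 537.4 and 463.6 over 2 TSS intervals, and Hoxd8 had 411.3 and 357.4.

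The 4 paralogs of group 9 spread from 161.7 to 457.7 on the means. Hoxc9, which marks the thoracic cord and represses brachial Hox genes, had 180.3 and 143.1, and Hoxa9 had 235.8 and 184.0. Hoxd9 had 380.6 and 368.7, and Hoxb9 had 465.0 and 450.5. Hoxb9 and Hoxd9 did not overlap each other or the other 2, while the ranges of Hoxa9 and Hoxc9 lay next to each other. Hoxc8 stood 3.25 ± 0.588 times above Hoxc9, and Hoxa7 2.40 ± 0.170 times above Hoxa9, whereas Hoxb8 was 1.17 ± 0.00227 times above Hoxb9 (SD, n = 2). Hoxd8 over Hoxd9 was 1.08 in replicate 1 and 0.969 in replicate 2, so its direction differed between replicates. The step at group 9 was thus seen in the Hoxa and Hoxc clusters, was small in the Hoxb cluster and was not seen in the Hoxd cluster, and the difference between clusters was not tested.

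Paralog groups 10 to 13, the lumbosacral and tail genes, had the lowest values. A TSS interval was found for 11 of 12, and the median density was 276.0 and 264.1. Hoxd10 and Hoxc10, genes of lumbar motor neurons, had 393.2 and 358.8, and 279.6 and 267.7. Hoxa10 had 237.0 and 219.3. In group 11, Hoxc11 had 272.5 and 260.6, Hoxa11 had 200.7 and 178.5, and Hoxd11 had 190.2 and 164.2. Hoxd12 was the lowest of the 36 genes with a TSS interval, at 74.4 and 84.4, on 134 and 152 counts.

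Group 13, whose products end axial elongation, stood above its neighbour in the Hoxa, Hoxc and Hoxd clusters and below it in Hoxb. Hoxc13 had 618.4 and 577.6 and ranked sixth of the 36 genes, above every other gene of groups 10 to 13 with no overlap. Hoxa13 (304.5 and 268.2), Hoxb13 (303.4 and 297.1) and Hoxd13 (313.8 and 282.6) overlapped one another. Hoxd12 was at 0.268 ± 0.0434 of Hoxd13 and Hoxa11 at 0.662 ± 0.00447 of Hoxa13 (SD, n = 2), so the last gene of both clusters stood above its measured neighbour in both replicates. Hoxb9 was 1.52 ± 0.0116 times above Hoxb13, the next gene of its cluster (SD, n = 2).

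Set against each other, the median of groups 1 to 4 was 2.08 ± 0.0670 times that of groups 10 to 13, and the median of groups 5 to 9 was 1.61 ± 0.109 times (SD, n = 2). Groups 1 to 4 and 5 to 9 differed by 1.30 ± 0.129 times. Each of these ratios was above 1 in both replicates. A class median can fall on a different gene in each replicate, so these SDs do not measure the spread of single genes. Genes of one cluster share its surroundings and are not independent replicates of a class. The order of the 3 classes held within the Hoxa cluster (582.7 ± 31.0, 421.3 ± 54.3 and 228.2 ± 12.5), the Hoxb cluster (662.2 ± 44.3, 534.5 ± 14.7 and 300.3 ± 4.43, the last from 1 gene) and the Hoxd cluster (562 ± 2.33, 379.5 ± 23.3 and 237.7 ± 20.2). In the Hoxc cluster the values were 456.2 ± 23.5 from 1 gene, 257.5 ± 1.80 and 270.1 ± 8.41, so the middle and posterior classes were not in that order. The latter medians count Hoxc5 and Hoxc12 at 0, and over the Hoxc genes with a TSS interval they were 353.3 and 273.7.

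**Figure D3:**
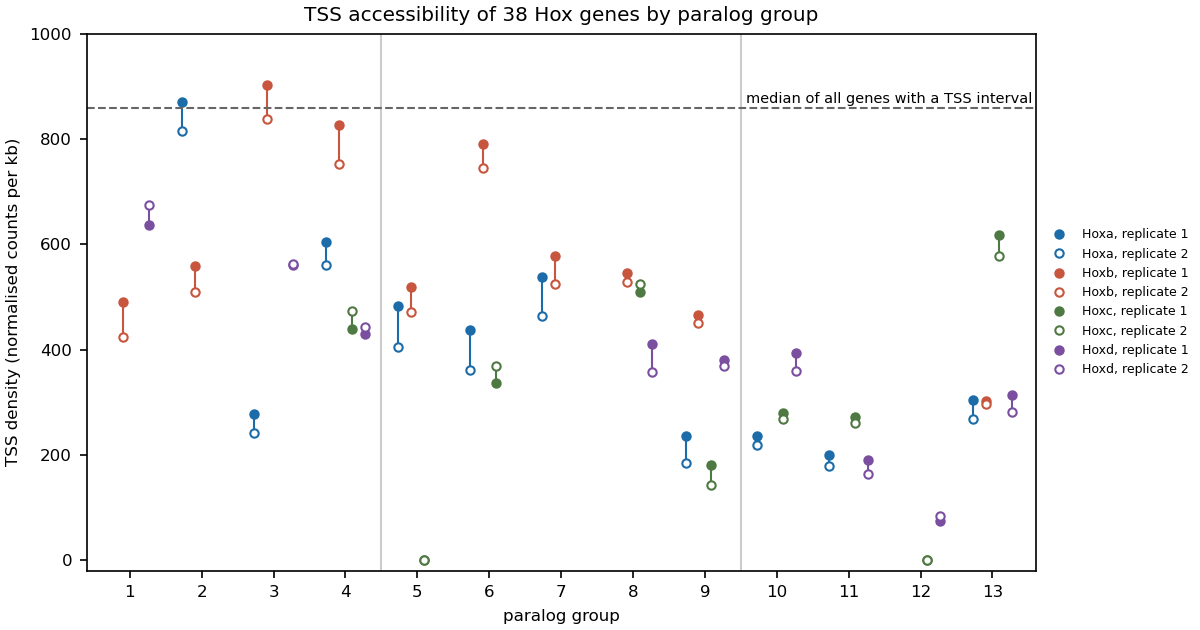
TSS density (normalised counts per kb) of the 38 Hox genes by paralog group, with replicate 1 as filled and replicate 2 as open circles, coloured by cluster. Vertical lines part groups 1 to 4, 5 to 9 and 10 to 13, the dashed line is the median of all genes with a TSS interval (859.4), and Hoxc5 and Hoxc12 stand at 0 because no interval reached their start.

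Along the whole ranking, few neighbours could be separated. Of the 36 genes with a TSS interval, a gap between the replicate ranges and those of the next gene was found only after Hoxb6, Hoxd1, Hoxc6, Hoxa3 and Hoxc9. Within such a block neighbours in the order overlapped, while genes further apart, such as Hoxc13 and Hoxd10, did not.

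Distal elements, the cluster intervals that overlap no protein-coding start, showed the opposite placement to the promoters. Their median density was 330.9 ± 46.0 for 72 intervals, beside 124.1 ± 2.01 for all distal intervals (SD, n = 2). Some lay close to a start: 64 remained when intervals within 1 kb of one were left out, with the same median of 330.9. Of the 72, 66 lay above the median of all distal intervals and 31 in their top 10%. A mean normalised count over 100 was reached by 52 of 72 (72.2%), beside 31.2% of all distal intervals. They were longer than other distal intervals (751 against 463 bp). In intervals between the lower and upper quartile of their lengths, 319.8 to 1188 bp, the medians were 337.2 ± 37.0 for 36 Hox intervals and 130.0 ± 1.46 for all 61518. Hox distal intervals had a median GC content of 55.3% and an observed over expected CpG ratio of 0.535, where all distal intervals had 48.4% and 0.208. TSS intervals differed little in this respect, with 58.9% and 0.670 in the clusters and 59.97% and 0.683 over all. Across the 72 Hox distal intervals, Spearman's rho of density was 0.05 with GC content and 0.02 with the CpG ratio, as a description. Of the Hox distal intervals, 18.1% overlapped a coding exon and 29.2% another exon alone, beside 8.05% and 6.87% of all distal intervals. Some also held the start of a non-coding gene, among them the densest of the Hoxa and of the Hoxd cluster. The parts of base composition, exons and non-coding starts in the difference from other distal intervals were not tested.

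The densest distal elements of the Hoxa and Hoxd clusters lay in or beside the group 3 genes. In Hoxa, 4 neighbouring intervals between Hoxa2 and the nearer Hoxa3 start exceeded all other intervals of the cluster. They were chr6:52170598-52170857 in a Hoxa3 coding exon (1066 and 1169), chr6:52171474-52173084 (986.1 and 944.4), the DR5 interval described above, and chr6:52177034-52177495 in an intron (1215 and 1160). In Hoxd, the interval chr2:74752568-74753564 between Hoxd1 and Hoxd3 had 1551 counts in each library and a density of 1556 ± 0.899 (SD, n = 2). It overlaps the starts of the non-coding genes Haglr and Gm14424. The next in order were chr2:74749406-74750288 (980.0 and 940.7) and the intronic interval chr2:74730323-74731595 inside the Hoxd3 gene model (919.5 and 928.1).

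In the Hoxb cluster the densest distal interval, chr11:96343944-96344704, overlapped a coding exon of Hoxb3 and had 918.9 and 826.2, overlapping the replicate range of the Hoxb3 TSS interval. A further Hoxb3 start, at chr11:96343769, lay just outside this interval, so it is distal only by the strict definition. In the Hoxc cluster the interval at Hoxc5 was the highest, and the intergenic interval chr15:102942604-102943765 between Hoxc12 and Hoxc11 had 589.7 and 541.1. The lowest interval of all 114, chr15:103021092-103021271 in an intron of Hoxc4, held 10 and 11 counts (58.3 ± 3.89 per kb), where counting error alone is large. Accessibility has no strand, so signal over a Hox gene and its antisense partner cannot be told apart.

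Distal density fell with distance from the anterior end in the Hoxa, Hoxb and Hoxd clusters, and less clearly in Hoxc. Over distal intervals, Spearman's rho between density and distance was -0.94 in both replicates for the 18 Hoxa intervals, -0.86 and -0.84 for the 28 Hoxb intervals and -0.70 in both for the 9 Hoxd intervals. For the 17 Hoxc intervals it was -0.35 and -0.41. At TSS intervals the coefficients were -0.59 and -0.62 in Hoxa (n = 12), -0.44 and -0.26 in Hoxb (n = 10), -0.04 in both replicates in Hoxc (n = 7) and -0.89 and -0.91 in Hoxd (n = 13), so the relation was weaker there in all but the Hoxd cluster. For the length of distal intervals against distance the coefficients lay between -0.07 and 0.01. The points of a cluster share its libraries and their neighbourhood, so these are descriptions.

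Cut into 3 segments of equal length, the Hoxa cluster had 288.6 ± 11.5 counts per kb in the anterior, 136.2 ± 14.7 in the middle and 94.6 ± 9.17 in the posterior segment. The covered share was 36.7%, 33.8% and 43.4%, and the median density of an interval fell from 842.8 ± 39.6 through 397.0 ± 19.9 to 189.6 ± 15.7. In the Hoxd cluster the values were 255.9 ± 1.28, 140.8 ± 3.35 and 99.002 ± 5.12, with 37.8%, 25.5% and 40.2% covered. The median density there was 604.1 ± 11.9, 590.4 ± 21.1 and 273.1 ± 6.37, so from the anterior to the middle segment the covered share fell and the replicate ranges of the median density overlapped, while from the middle to the posterior segment the median density fell and the covered share rose. In the Hoxb cluster both fell, from 226.7 ± 11.7 through 127.0 ± 4.74 to 20.9 ± 1.38 counts per kb and from 39.7% through 29.9% to 10.3% covered. In the Hoxc cluster the anterior segment had 131.5 ± 1.49, and the middle (60.9 ± 4.80) and posterior (70.4 ± 3.06) were closer to each other, with no replicate overlap.

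The longest stretches with no interval also differed between clusters. The longest was 30.6 kb in the Hoxb cluster, chr11:96204253-96234827, in the wide space between Hoxb13 and Hoxb9, followed there by 10.4 kb (chr11:96240473-96250845). In the Hoxc cluster a stretch of 10.6 kb ended just before Hoxc11 (chr15:102943766-102954354), and one of 7.68 kb ran from inside Hoxc10 to just before Hoxc9. In the Hoxd cluster 8.68 kb inside the long Hoxd3 and Hoxd4 gene models and 6.69 kb between Hoxd3 and Hoxd1 were free of intervals. The longest in the Hoxa cluster were 5.36 and 5.20 kb. A stretch without an interval is one where no peak passed the calling limit, and its counts are not in the table.

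Cluster intervals were found over exons more often than intervals elsewhere. Of the 114, 46 (40.4%) overlapped a coding exon, beside 15.3% of all intervals, and 15 (13.2%) were intergenic, beside 35.2%. These sets differ in their share of TSS intervals, with 42 of 114 in the clusters and 14640 of 119502 over all. Among distal intervals alone, 13 of 72 (18.1%) overlapped a coding exon, beside 8.05% of all distal intervals, and 15 (20.8%) were intergenic, beside 40.1%. Hox genes are short and close together, which these counts do not correct for.

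The clusters also carry microRNA genes of the miR-10, miR-196 and miR-615 families, which lie among the Hox genes and share their axial domains. Mature sequences from RefSeq are shown 5′ to 3′ with the seed, bases 2 to 8, in capitals, because the families pair loci of different clusters.
miR-10a-5p (Mir10a, next to Hoxb4): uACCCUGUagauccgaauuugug
miR-10b-5p (Mir10b, next to Hoxd4): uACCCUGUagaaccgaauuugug
miR-196a-5p (Mir196a-1, Hoxb, and Mir196a-2, Hoxc): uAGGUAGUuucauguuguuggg
miR-196b-5p (Mir196b, Hoxa): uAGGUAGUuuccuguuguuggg
miR-615-3p (Mir615, in Hoxc5): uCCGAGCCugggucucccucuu
The miR-10 pair shared one seed and the miR-196 loci another. An interval overlapped the hairpin of Mir196b, with 489 and 433 counts (239.1 and 212 per kb), and that of Mir615, which lies in the dense interval at Hoxc5 with 1792 and 1774 counts. The hairpins of Mir10a and Mir10b were 479 and 482 bp from the nearest interval, which was the TSS interval of Hoxb4 and of Hoxd4. Those of Mir196a-1 and Mir196a-2 were 1074 and 2151 bp away. A hairpin is not the start of its primary transcript, so these distances say where the mature sequence lies and nothing of its expression.

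Other motifs were searched on both strands in the central 500 bases. The Cdx motif TTTATNG was present in 11 of 42 Hox TSS intervals (26.2%) and 7.08% of all TSS intervals. These 11 were at Hoxa7, Hoxa10, Hoxb6, Hoxb7, Hoxb8, Hoxb9, Hoxb13, Hoxc4, Hoxd3, Hoxd4 and Hoxd8. In distal intervals it was present in 14 of 72 (19.4%), near the 21.4% of all distal intervals. The PBX-HOX motif TGATNNAT was present in 4 of 42 Hox TSS intervals (9.52%, all 5.23%) and 10 of 72 distal ones (13.9%, all 24.8%), and the MEIS motif TGACAG in 6 (14.3%, all 23.8%) and 14 (19.4%, all 37.9%). The CTCF core and the DR2 type of RA response element matched in 0 of the 114, where 3.41% and 0.519% of all intervals had a match. These are letter matches to short patterns, and a lack of one says nothing of binding. In the 24 RefSeq promoters of 300 bases, the PBX-HOX motif was found in those of Hoxa2, Hoxb1, Hoxb8 and Hoxd11 (16.7%, all promoters 8.85%), the Cdx motif in Hoxb8 and Hoxd4 (8.33%, all 10.9%) and the MEIS motif in Hoxa2 and Hoxa3 (8.33%, all 19.2%). No Hox promoter held the CTCF core, DR5 or DR2 pattern, which 0.557%, 0.0974% and 0.268% of all promoters did.

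Genes that work with or upstream of Hox proteins were listed for comparison. Of 23 cofactors and regulators, 22 had a TSS interval, beside 67.0% of protein-coding genes, and their median density of 902.0 was close to the 859.4 of all genes with one. Among the TALE cofactors that bind DNA with Hox proteins, values ran from 494.4 ± 39.5 at Pbx2 to 3007 ± 19.0 at Pbx4, with 926.5 ± 43.5 at Meis1 and 1375 ± 8.47 at Pbx3 (SD, n = 2). Rarb, an RA receptor gene that is itself an RA target, had 1179 ± 35.8. The other listed genes of RA signalling were lower, at 857.1 ± 30.9 (Rara), 490.1 ± 13.9 (Rarg), 285.7 ± 23.5 (Cyp26a1) and 239.7 ± 17.9 (Aldh1a2). The Cdx genes, which act on trunk Hox genes at an earlier stage, were low: Cdx1 had 118.9 ± 6.58, Cdx2 had 293.7 ± 5.86, and Cdx4 had no TSS interval. The Polycomb gene Ezh2 had 1981 ± 10.3. Levels of accessibility are not levels of expression.

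The genes that flank the clusters ranged from no TSS interval at Skap1 and Calcoco2 to 1647 ± 92.5 at Calcoco1. The Evx genes, homeobox genes at the posterior ends of the Hoxa and Hoxd clusters, had 218.2 ± 13.7 (Evx1) and 223.8 ± 21.2 (Evx2), in the range of groups 10 to 13. Further out, Skap2 had 1624 ± 76.1, Lnpk 1128 ± 14, Smug1 892.5 ± 50.2, Mtx2 798.3 ± 58.1 and Ttll6 75.1 ± 13.7.

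Markers of the labelled cells were open in the same libraries. All 6 neural progenitor genes had a TSS interval, where 67.0% of protein-coding genes had one. Their densities ran from 612.7 ± 3.69 at Pax6 to 1498 ± 73.3 at Sox1, with Olig2 at 946.1 ± 23.2 and Nkx6-1 at 1452 ± 27.3. The p3 gene Nkx2-2 had 879.4 ± 27.5. A TSS interval was also found for 5 of 6 motor neuron genes, from 375.7 ± 5.44 at Lhx3 to 2268 ± 182 at Isl2, with Isl1 at 1087 ± 36.9. Chat, which makes acetylcholine in mature motor neurons, had none. A TSS interval was found for 1 of 3 pluripotency genes (Zfp42 at 237.2, with none at Pou5f1 and Nanog), 2 of 3 neuromesodermal genes (204.0 and 276.5, with none at Tbx6), 3 of 4 feeder fibroblast genes (123.1 to 291.3, with none at Col1a1) and 4 of 5 forebrain and midbrain genes (190.0 to 631.7, with none at Six3). Many of these values lay in the range of groups 10 to 13, and what other cells added to the Hox values was not tested. The libraries held 31876165 and 31672240 counts.

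The last question was how far the libraries differed at the Hox clusters. In the two-sided exact binomial test with Benjamini-Hochberg adjustment over all intervals and a limit of 0.01, 0 of the 114 were called, beside 0% of all intervals (0 of 119502). At an unadjusted p under 0.05 there were 25 of 114, where 8.39% of all intervals were. The lowest adjusted p in this test was 0.0155, at the Hoxa5 TSS interval with 1807 and 1517 counts. With edgeR TMM factors this interval was called (adjusted p = 0.00838 in the same exact test), 1 of 6 over the table. Among the 94 cluster intervals whose normalised counts averaged over 100, 0 had a ratio beyond 1.5-fold, beside 0.108% of all such intervals. The SD of the log2 ratio was 0.15 over cluster intervals and 0.38 over all intervals. These sets differ in depth, as 82.5% of cluster intervals and 38.8% of all intervals had a mean over 100. Both the SD and the share with an unadjusted p under 0.05 depend on depth, and neither was compared at like depth.

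The small differences ran mostly one way. Normalised counts were lower in replicate 2 at 87 of 114 intervals (76.3%), beside a background of 50.0%. The count was 27 of 30 in the Hoxa cluster, 33 of 38 in Hoxb, 15 of 24 in Hoxc and 12 of 22 in Hoxd, with median log2 ratios of -0.18, -0.13, -0.06 and -0.02. All 12 TSS intervals of Hoxa and all 10 of Hoxb were lower, where 66.9% of all TSS intervals and 47.6% of distal ones were, and 46.8% of all intervals on chromosome 6. With total counts for scaling 85 were lower and with edgeR TMM factors 88. Neighbouring intervals can share fragments and are not independent.

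Single intervals differed little beyond this shift. The largest log2 ratio among intervals with a mean over 100 was -0.38 in Hoxa, in an intron of Hoxa3 at chr6:52187452-52187720 (146 and 112 counts). It was -0.35 in Hoxb, in a coding exon of Hoxb6 at chr11:96300557-96300951 (164 and 129), -0.33 at the Hoxc9 TSS interval (375 and 298) and -0.21 at the Hoxd11 TSS interval (706 and 610). None of the 4 passed the limit, with adjusted p between 0.314 and 0.573 in the exact binomial test.

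**Figure D4:**
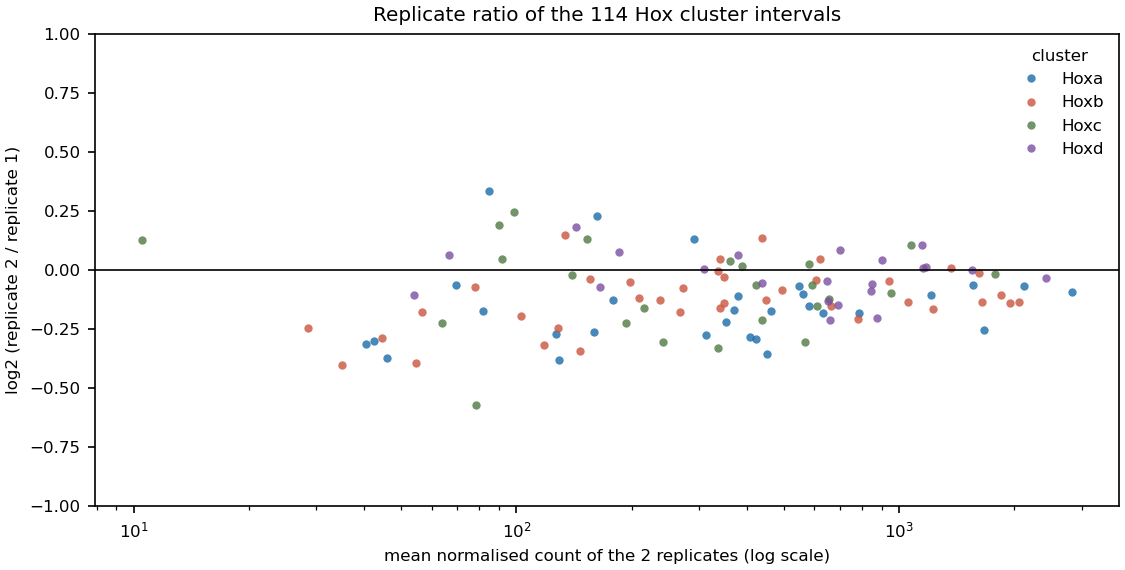
Log2 ratio of replicate 2 over replicate 1 against the mean normalised count (log scale) for the 114 cluster intervals, coloured by cluster. Most Hoxa and Hoxb points lie just below the line at 0 (27 of 30 and 33 of 38), while Hoxd points lie on both sides.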

How the data were processed

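ATAC-seq was measured in 2 libraries of 1 group. The deposited values are counts of fragments, not normalised, that the authors made for each consensus interval. Per the study's methods, reads were aligned to mm10 and peaks called with MACS (FDR 1e-05) in nf-core atacseq 1.2.0, and an interval needed a peak in at least 2 replicates. Per the file headers, read pairs were counted with featureCounts 2.0.1, each interval overlapped by at least 0.2 of a fragment receiving the count, so a fragment can enter more than 1 interval. Peaks of 5 libraries entered the interval set, and the 3 columns of the remaining libraries were left out.

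Density was the count over the size factor (DESeq2 1.42.0) and over the interval length in kb. GENCODE annotation of the same assembly gave genes and starts of protein-coding transcripts, without those marked as incomplete at the 5′ end. A gene with several TSS intervals was given summed counts over summed length, and one with none was given 0 in medians. The cluster span ran between outermost member gene ends. The replicate counts of an interval were compared by an exact binomial test, two-sided, against the share set by the size factors. It was adjusted by Benjamini-Hochberg over 119502 intervals and compares libraries and not conditions. The test was checked on simulated data that held counting error alone, so the check does not cover variation between real libraries. Log2 ratios used a pseudocount of 1. Named intervals were the 3 densest and the 2 longest gaps per cluster, the largest replicate ratio with a mean over 100, and those with a DR5, DR2 or CTCF motif, beside all members and the flanking genes; others are named as neighbours of a result, chosen after their values were seen. Members, lists and tests were chosen with earlier results of these data known. Alternatives were edgeR (4.0.16) TMM factors or total counts, filters on low counts, other TSS definitions, wider spans, counts per interval, a pseudocount of 10 and leaving out each replicate. Python 3.11.15, numpy 2.4.6, pandas 2.3.3, scipy 1.17.1 and R 4.3.3 were used. Fragments carried no molecular identifiers, so the precision from counts covers counting error only.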

Additional observations from a re-analysis of the deposited data

How the results depend on the processing

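Of 71 alternative values for 12 results, 56 stayed within the replicate SD, or within 1.5 times for counts, and 15 moved. For the SD of the log2 ratio the limit was instead the spread of that SD among the 4 clusters. A further 18 values without either replicate say nothing of stability, since each of 2 replicates lies within 1 SD of their mean by construction. With the annotated gene 5′ end as the only start, the median TSS density of all Hox genes was 372.5, that of groups 1 to 4 was 580.8 and that of groups 5 to 9 was 386.4. With CCDS-tagged starts, groups 1 to 4 had 569.8 and groups 10 to 13 had 247.3. The number of genes with a TSS interval ran from 30 (gene 5′ end) to 38 (within 1 kb). The number of Hox genes above the median of genes with a TSS interval ran from 0 (gene 5′ end, CCDS-tagged starts or a mean over 100) to 3 (within 1 kb). Counted per interval and not per kb, the medians were 703.3 for all Hox genes, 1208.0 for groups 1 to 4, 606.5 for groups 5 to 9, 507.5 for groups 10 to 13 and 223.5 for distal intervals, a change of unit that kept the order of the classes. Widening the span by 10 kb at each end gave 113.5 counts per kb in Hoxb and 144.1 in Hoxd, and intervals with a mean over 100 alone gave 83.9 in Hoxc. TMM factors called 1 interval, and an unadjusted p under 0.05 gave 25. The ratio of groups 1 to 4 over 10 to 13 stayed between 2.08 and 2.30 under each TSS definition and count filter. Without either replicate the median TSS density of all Hox genes lay between 386.9 and 433.7 and the distal median between 298.4 and 363.4. No paired analysis was possible because the 2 libraries formed a single group. With 2 libraries, differences near the replicate SD are not resolved.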
